A study of Oryza sativa with 9 samples.

Results

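Prolamines are the alcohol-soluble storage proteins of cereal endosperm, the starchy tissue that fills the grain. In rice they are made on the endoplasmic reticulum (ER) and stay there as intracisternal granules, the protein bodies, while the other major storage proteins, the glutelins, move on to storage vacuoles. Prolamine messenger RNAs are localised to the ER around these granules, and the RNA-binding protein RBP-P attaches to them and to glutelin messenger RNAs. The genes described here are 10 prolamine loci on 5 chromosomes, outside the prolamine cluster of chromosome 5, out of 55986 loci in the deposited table. They were chosen by locus identifier, and all 10 were found in the table.

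The libraries came from 3 genotypes with 3 biological repeats each. P1MH carries the amino acid change G401S in RBP-P, P3MH carries A252T in RBP-P, and WT is wild type. All were total RNA of dehulled developing seeds at 10 to 14 days after flowering. The plants were kept at 27 °C in equal light and dark periods of 12 h. The labels name neither the cultivar nor how many plants or seeds went into a repeat. Values are RPKM, reads scaled to the counted length of a locus and to the total of its library, so levels may be compared between loci.

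The totals with which the deposited values come out as whole reads were 5865007 to 6522918 in P1MH, 6062155 to 7379192 in P3MH and 13629140 to 14996868 in WT. Among counts of 1 to 9, 52.2 to 55.1% were odd in P1MH and 53.1 to 56.4% in P3MH, against 17.7 to 21.5% in WT. WT counts thus moved mostly in steps of 2, unlike those of the mutants, and the part of this in any comparison with WT was not tested. Endosperm storage transcripts were abundant, as the labelled tissue would hold, and the 10 glutelin loci made up 33.4 to 35.5% of all RPKM in P1MH, 31.2 to 34.6% in P3MH and 25.4 to 27.1% in WT. In these bulk samples, fewer cells of a type and less RNA per cell cannot be told apart.

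The loci form 4 tandem pairs and 2 single loci. On chromosome 7, LOC_Os07g11910 (6611125 to 6611758, minus strand) and LOC_Os07g11920 (6613131 to 6613762, minus strand) make up 1 pair. LOC_Os07g10570 (5736875 to 5737846, plus strand) and LOC_Os07g10580 (5741849 to 5742542, plus strand) make up the other. Chromosome 12 holds LOC_Os12g16880 (9686915 to 9687610, plus strand) and LOC_Os12g16890 (9688985 to 9689714, plus strand). Chromosome 6 holds LOC_Os06g31060 (18065898 to 18067784, minus strand) and LOC_Os06g31070 (18072222 to 18072904, minus strand). LOC_Os11g33000 (19509288 to 19509923, plus strand) and LOC_Os03g55730 (31725971 to 31732265, minus strand) stand alone on their chromosomes. Coordinates are those of the deposited table, whose genome build is not given in the sources used here.

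For 8 of the 10 loci the counted length that gave whole reads equalled the whole span, so no intron was left out of it. The exceptions were LOC_Os03g55730 and LOC_Os06g31060, which spans 1887 bp with a counted length of at least 676 bp. LOC_Os07g10580 lay where RefSeq annotates a prolamin gene with the synonyms PROLM25, RP5 and RP6, as judged by the spacing of 19 neighbouring genes. No other locus of the 10 could be tied to a named gene. Prolamine copies in tandem are similar in sequence, and the sources used here do not say how reads matching several copies were assigned, so the split within a pair is uncertain.

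The label held least well for LOC_Os03g55730. It spans 6295 bp with a counted length of at least 1671 bp, while the other 9 loci span 632 to 1887 bp. Its level was 17.2, 14.9 and 11.9 RPKM in P1MH, 9.97, 10.7 and 9.57 RPKM in P3MH, and 11.1, 13.3 and 12.4 RPKM in WT. At these levels it ranked between 3537 and 5797 among all loci in the 9 libraries. The shorter locus LOC_Os03g55740, of 814 bp, lies 3175 bp from it and was called lower in both mutants (log2 fold changes -1.93 in P1MH and -1.99 in P3MH, limma adjusted p = 0.00059 and 0.000522). Which of them is the prolamine locus could not be checked. LOC_Os03g55730 is kept in all counts below, as the locus named, and with LOC_Os03g55740 in its place 1 locus would count as called lower in each mutant.

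The 10 loci differed widely in level. LOC_Os07g11920 was the highest, at 17647, 11950 and 15926 RPKM in P1MH, 10057, 10805 and 11068 RPKM in P3MH, and 14409, 18090 and 16112 RPKM in WT. It ranked between 5 and 9 among all loci of the table in the 9 libraries. LOC_Os07g11910 followed with 8793, 7590 and 10015 RPKM in P1MH, 7942, 7151 and 5717 RPKM in P3MH, and 9118, 13410 and 11404 RPKM in WT. Every P3MH library lay below every WT library at both loci, while P1MH and WT overlapped at both.

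The pair at LOC_Os07g10570 stood lower than these loci in every library. PROLM25 (LOC_Os07g10580) had 4073, 6144 and 6827 RPKM in P1MH, 3273, 2162 and 3826 RPKM in P3MH, and 2964, 3591 and 3273 RPKM in WT. LOC_Os07g10570 had 3421, 4691 and 4661 RPKM in P1MH, 2526, 2104 and 2390 RPKM in P3MH, and 2416, 2322 and 1819 RPKM in WT. At both loci all P1MH libraries lay above all libraries of P3MH and of WT, and P3MH and WT overlapped. In P1MH replicate 1 the values of these 2 loci were not whole reads with the length that fitted the other 8 libraries. Of 885 loci examined, 4 were not whole in 1 library, these 2 among them.

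On chromosome 12, the abundant locus LOC_Os12g16890 had 3916, 3959 and 4260 RPKM in P1MH, 2702, 2466 and 1785 RPKM in P3MH, and 3891, 3417 and 2887 RPKM in WT. Its 3 genotypes did not overlap, with P1MH highest and P3MH lowest, though P1MH and WT were parted only narrowly between replicate 1 of each. The minor locus LOC_Os12g16880 had 64.9, 32.0 and 53.3 RPKM in P1MH, 72.5, 71.8 and 47.1 RPKM in P3MH, and 29.6, 20.8 and 19.5 RPKM in WT. All 6 mutant libraries lay above all WT libraries at the minor locus.

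On chromosome 6, the abundant locus LOC_Os06g31070 had 1253, 2104 and 2019 RPKM in P1MH, 1299, 728 and 600 RPKM in P3MH, and 1244, 908 and 851 RPKM in WT. P1MH lay above WT in every library, narrowly so between replicate 1 of each, and overlapped with P3MH through P3MH replicate 1. The minor locus LOC_Os06g31060 had 27.2, 30.2 and 20.2 RPKM in P1MH and 22.8, 25.4 and 14.4 RPKM in P3MH, while WT had 0.0986 RPKM in replicate 2 and was listed at 0 in replicates 1 and 3. This was 72 to 132 reads in each mutant library against 1 read in all WT libraries together, at the shortest fitting length. The longer of the 2 lengths that fitted would give higher read numbers at the same RPKM.

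LOC_Os11g33000 had 1883, 2119 and 2755 RPKM in P1MH, 2423, 1929 and 1579 RPKM in P3MH, and 4251, 2399 and 2244 RPKM in WT. WT replicate 1 stood far above the other WT libraries, and the genotypes overlapped in all 3 pairs.

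**Figure D1:**
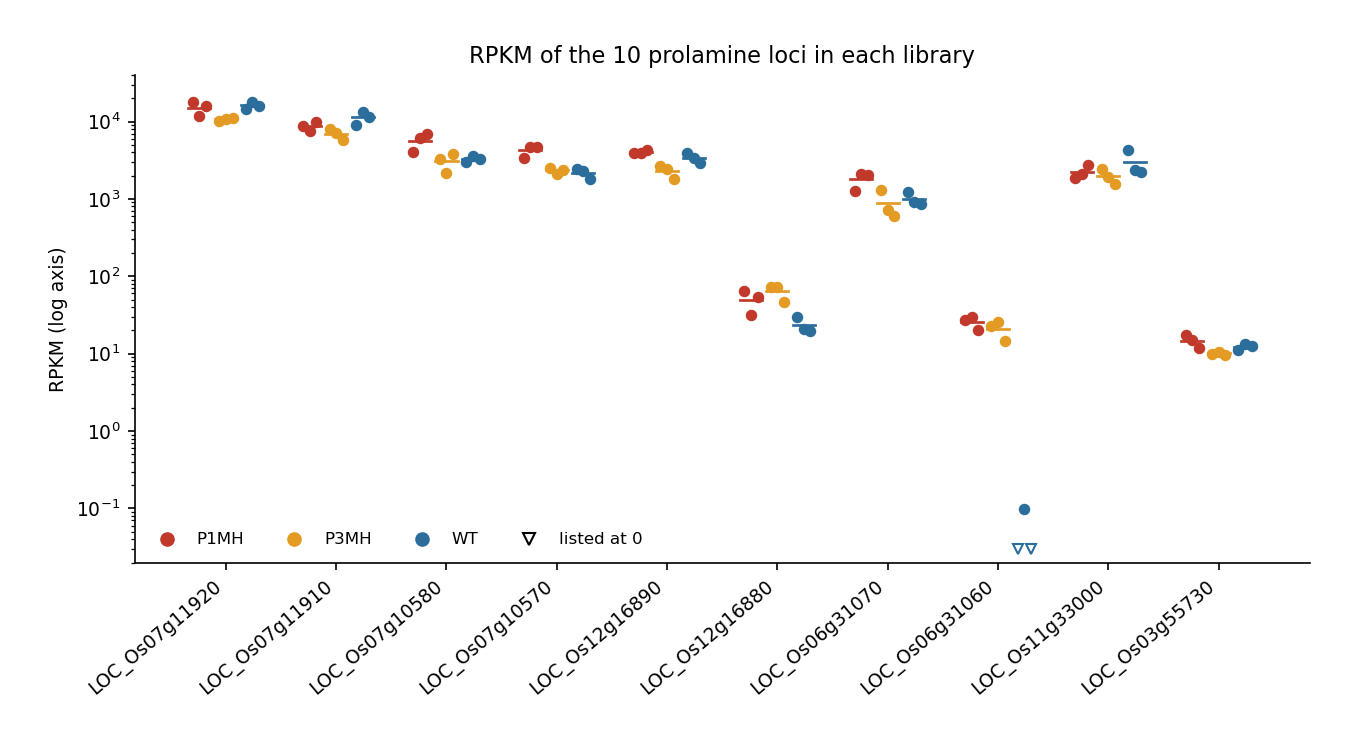
RPKM of each locus in each library on a log axis, with P1MH, P3MH and WT from left to right at each locus. Points are libraries, bars are means of 3 where no library is at 0, and open triangles mark values listed at 0. LOC_Os06g31060 is at 14.4 to 30.2 RPKM in the mutants and near or at 0 in WT.

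Summed over the 10 loci, the level was 41095, 38633 and 46550 RPKM in P1MH, 30327, 27452 and 27036 RPKM in P3MH, and 38334, 44172 and 38622 RPKM in WT. The means were 42093 ± 4052 RPKM in P1MH, 28272 ± 1792 RPKM in P3MH and 40376 ± 3290 RPKM in WT (SD, n = 3 each). P3MH lay below both other genotypes in every library, and P1MH and WT overlapped. Without LOC_Os07g11910 and LOC_Os07g11920, the sum of the other 8 loci was 14655, 19093 and 20609 RPKM in P1MH, 12329, 9496 and 10251 RPKM in P3MH, and 14807, 12672 and 11106 RPKM in WT. P3MH and WT overlapped in that sum, and P3MH still lay below P1MH. As a share of all RPKM the sum was 7.90 ± 0.712% in P1MH, 5.38 ± 0.325% in P3MH and 7.38 ± 0.438% in WT (SD, n = 3 each). No test was run on the sum, since the loci were chosen with results of these data known.

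**Figure D2:**
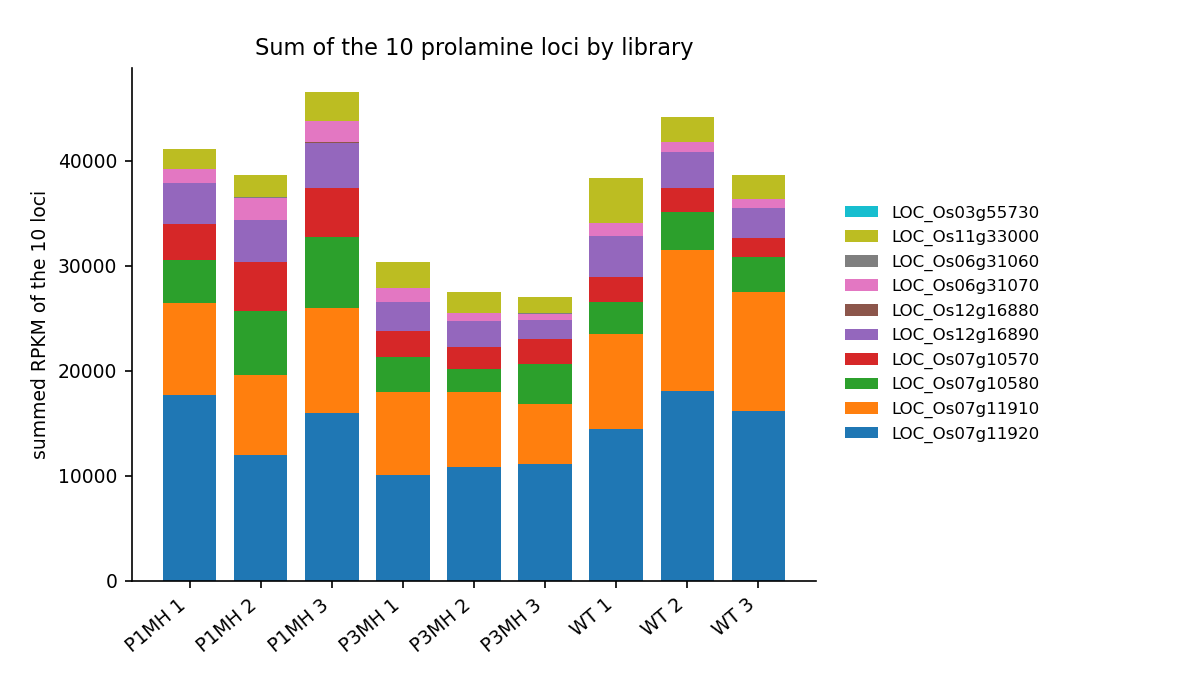
Summed RPKM of the 10 loci in each library, stacked by locus. The 3 P3MH bars end between 27036 and 30327 RPKM, below every P1MH and WT bar, and the lowest segments are LOC_Os07g11920 and LOC_Os07g11910.

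The make-up of the sum also varied. The pair LOC_Os07g11910 and LOC_Os07g11920 supplied 56.9 ± 6.95% of it in P1MH, 62.3 ± 3.04% in P3MH and 68.0 ± 5.72% in WT (SD, n = 3 each), with overlap between all genotypes. The pair LOC_Os07g10570 and PROLM25 supplied 23.7 ± 4.99% in P1MH, 19.2 ± 3.73% in P3MH and 13.5 ± 0.444% in WT. All 6 mutant libraries lay above all WT libraries in this share, though in RPKM the pair overlapped between P3MH and WT.

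The first comparison asked which of these transcripts differed between P1MH and WT. With limma on log2(RPKM + 1), 3 of the 10 loci were called higher in P1MH at an adjusted p under 0.05, against 3.18% of all 16064 tested genes. None was called lower, against 5.63% of tested genes. Under median-ratio rescaling the same 3 loci were called, and 4.11% of tested genes were called higher and 3.53% lower. LOC_Os07g10570 rose by 0.96 (log2 fold change, SE 0.20, limma adjusted p = 0.0105), which was 4257 ± 725 RPKM in P1MH and 2186 ± 321 RPKM in WT (SD, n = 3 each). LOC_Os12g16880 rose by 1.04 (SE 0.26, limma adjusted p = 0.0298), to 50.1 ± 16.7 RPKM in P1MH against 23.3 ± 5.52 RPKM in WT. At an unadjusted limma p under 0.05, 5 loci were higher, where 7.62% of genes were, and none lower, where 17.1% were. The 5 include LOC_Os06g31060, which is discounted below. The median of the 10 loci was 0.51, beside -0.10 over all tested genes.

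The remaining call, LOC_Os06g31060, passed the filter on low values through the mutant libraries alone, so that it had to differ, and it adds nothing to the count. Its fitted fold change depends on the pseudocount. From reads recovered at the shortest fitting length, 329 in P1MH and 1 in WT, the P1MH level was 747 times that of WT. The exact 95% interval of 133 to 29592 covers counting error only and holds for that length. Of all loci in the table, 4 had a WT mean under 0.1 RPKM with every mutant library at 10 RPKM or more, and 18 showed the opposite pattern.

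PROLM25 did not pass over all genes, at 0.76 (SE 0.25, 95% interval 0.22 to 1.31, limma adjusted p = 0.0812). It passed without P1MH replicate 1 (limma adjusted p = 0.041) and without P3MH replicate 2 (0.0498). LOC_Os06g31070 stood at 0.82 (SE 0.29, 95% interval 0.19 to 1.46, limma adjusted p = 0.106) and was called higher under quantile normalization alone (limma adjusted p = 0.0324). LOC_Os12g16890 had a log2 fold change of 0.26 (95% interval -0.18 to 0.70), and LOC_Os03g55730 had 0.23 (-0.10 to 0.56). The highest pair had values of -0.35 (LOC_Os07g11910, 95% interval -0.82 to 0.12) and -0.11 (LOC_Os07g11920, -0.55 to 0.34), and LOC_Os11g33000 had -0.35 (-0.92 to 0.22). None of these 5 passed the test. Without WT replicate 3, LOC_Os07g10570 had a limma adjusted p of 0.0618 and LOC_Os12g16880 one of 0.12, leaving 1 called locus. LOC_Os12g16880 also lost its call without WT replicate 2, P1MH replicate 1 or P1MH replicate 3 (0.104, 0.0914 and 0.0833) and without a filter on low values (0.071).

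Libraries of P1MH and WT did not overlap at 6 of the 10 loci, all higher in P1MH, where 9.7% of tested genes lay wholly above WT and 21.5% wholly below. Of the 6, LOC_Os06g31060 again had to differ, and LOC_Os06g31070 and LOC_Os12g16890 were parted from WT only narrowly. Markers of embryo and aleurone, the other storage compartments of the seed, moved with this comparison. Of 6 tested embryo and aleurone loci 3 were called higher, and their summed level was 1198 to 1820 RPKM in P1MH and 642 to 994 RPKM in WT, with none at 0 in every library. Of 4 green pericarp loci 2 were called lower, with a summed level of 136 to 143 RPKM in P1MH and 168 to 191 RPKM in WT, and none at 0 in every library. The part of either in the prolamine values was not tested.

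The second comparison set P3MH against WT, with the same WT libraries. Limma called 2 of the 10 loci higher in P3MH, against 1.67% of tested genes, and none lower, against 3.1% (4.77% in either direction). Under median-ratio rescaling the same 2 loci were called, and 2.54% of tested genes were called higher and 2.03% lower. LOC_Os12g16880 rose by 1.41 (SE 0.26, limma adjusted p = 0.00885), to 63.8 ± 14.5 RPKM in P3MH against 23.3 ± 5.52 RPKM in WT (SD, n = 3 each). The other call was LOC_Os06g31060, which had to differ for the reason given above. Its level, from 276 reads in P3MH and 1 in WT at the same shortest length, was 593 times that of WT. The exact 95% interval at that length was 106 to 23501, for counting error only. The median of the 10 loci was -0.26, beside -0.13 over all tested genes.

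At 3 abundant loci every P3MH library lay below every WT library, but none of the 3 passed the test over all genes. LOC_Os07g11910 was 6937 ± 1128 RPKM in P3MH and 11311 ± 2147 RPKM in WT (SD, n = 3 each; log2 fold change -0.70, SE 0.22, 95% interval -1.17 to -0.23, limma adjusted p = 0.089). LOC_Os07g11920 was 10643 ± 525 RPKM in P3MH and 16204 ± 1842 RPKM in WT (-0.60, SE 0.21, 95% interval -1.05 to -0.15, limma adjusted p = 0.124). LOC_Os12g16890 was 2318 ± 476 RPKM in P3MH and 3398 ± 502 RPKM in WT (-0.56, SE 0.20, 95% interval -1.0 to -0.12, limma adjusted p = 0.144). Without adjustment these 3 loci had a limma p under 0.05, as 14.5% of tested genes did in that direction. The 2 called loci were the higher ones by that measure, which 5.34% of genes met, and of them LOC_Os06g31060 had to differ.

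LOC_Os07g10570 and PROLM25, higher than WT in every P1MH library, stood at 0.11 (95% interval -0.33 to 0.54) and -0.12 (-0.67 to 0.42) in P3MH, and neither passed. LOC_Os06g31070 had -0.25 (-0.89 to 0.38), LOC_Os03g55730 had -0.26 (-0.59 to 0.07) and LOC_Os11g33000 had -0.54 (-1.12 to 0.03), none of which passed the test. Libraries of P3MH lay wholly above WT at 2 loci, where 6.97% of tested genes did, and wholly below at 4, where 20.6% did. Of the 2 above, LOC_Os06g31060 again had to differ. The summed level of the embryo and aleurone markers was 914 to 1208 RPKM in P3MH and that of the green pericarp markers 125 to 200 RPKM, both overlapping WT. None of the 6 embryo and aleurone loci was called, and 1 of the 4 green pericarp loci was called lower.

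The direct comparison of P1MH with P3MH took its means from the mutants and its spread from all 9 libraries. Limma called none of the 10 loci, and of all tested genes 0.0125% were called higher and 0.0187% lower in P1MH (0.0311% in either direction). Without adjustment, 6 of the 10 passed a limma p of 0.05 as higher in P1MH and none lower, where 7.07% of tested genes were higher and 5.72% lower. The log2 fold change was above 0 at 9 of the 10 loci, beside 53.8% of tested genes. The median of the 10 loci was 0.49, beside 0.02 over all tested genes. Other lists moved with this comparison too, though none of their loci was called. By limma without adjustment, 3 of 6 embryo and aleurone loci had a p under 0.05, all higher in P1MH (median of the list 0.39), and all 4 ER folding loci did, lower in P1MH (median -0.59). The embryo and aleurone share of all RPKM was 0.228 to 0.338% in P1MH and 0.176 to 0.227% in P3MH, parted only narrowly. In summed RPKM that list overlapped, at 1198 to 1820 in P1MH and 914 to 1208 in P3MH. The ER folding share was 0.477 to 0.604% in P1MH and 0.674 to 1.12% in P3MH. The part of these lists in the prolamine values was not tested.

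LOC_Os06g31070 had the largest of these differences, 1.08 (SE 0.29, 95% interval 0.44 to 1.71, limma adjusted p = 0.21), from 1792 ± 468 RPKM in P1MH and 875 ± 372 RPKM in P3MH (SD, n = 3 each). PROLM25 stood at 0.89 (SE 0.25, 95% interval 0.34 to 1.43, limma adjusted p = 0.218) and LOC_Os07g10570 at 0.85 (SE 0.20, 95% interval 0.42 to 1.28, limma adjusted p = 0.16). LOC_Os12g16890 stood at 0.82 (SE 0.20, 95% interval 0.38 to 1.26, limma adjusted p = 0.18). LOC_Os07g11920 and LOC_Os03g55730 had differences of 0.49 each (95% intervals 0.05 to 0.94 and 0.16 to 0.82). LOC_Os07g11910 had 0.35 (-0.12 to 0.82), LOC_Os06g31060 had 0.32 (-0.14 to 0.77) and LOC_Os11g33000 had 0.19 (-0.38 to 0.76). The minor chromosome 12 locus LOC_Os12g16880 was the exception, at -0.37 (-0.94 to 0.19). LOC_Os03g55730, LOC_Os07g11920 and the 4 loci named before them are the 6 counted above. P1MH libraries lay wholly above P3MH libraries at 5 of the 10 loci, where 8.81% of tested genes did, and wholly below at none, where 6.47% did.

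**Figure D3:**
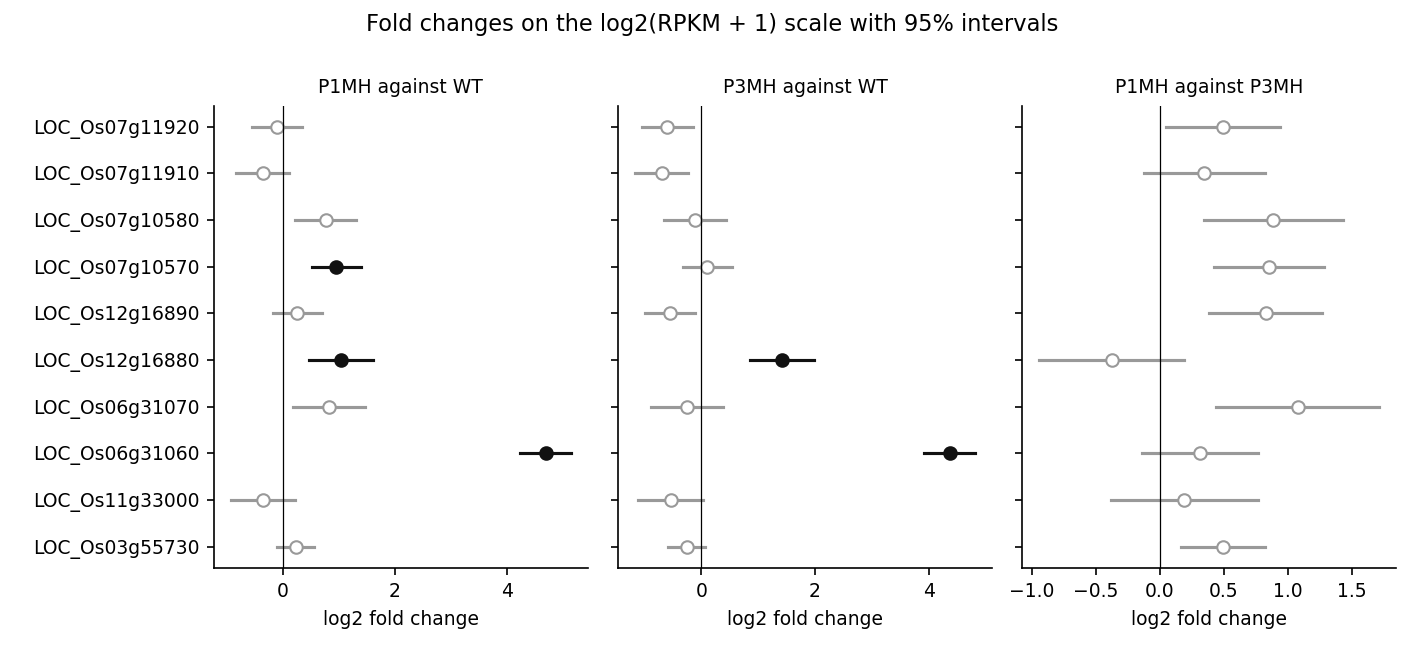
Log2 fold change of each locus on the log2(RPKM + 1) scale in the 3 comparisons, with 95% limma intervals as lines. Filled points passed the test over all genes and open points did not. In the comparison of P1MH with P3MH, 9 of the 10 points lie above 0 and none passed.

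Ratios between neighbouring loci were taken within each library, where rescaling of a library cancels. These ratios were chosen after the values were seen and were not tested. LOC_Os12g16880 amounted to 1.66, 0.809 and 1.25% of LOC_Os12g16890 in P1MH, 2.68, 2.91 and 2.64% in P3MH, and 0.761, 0.608 and 0.675% in WT. The 3 genotypes did not overlap in this ratio, and P3MH was highest. LOC_Os06g31060 amounted to 2.17, 1.44 and 0.999% of LOC_Os06g31070 in P1MH and to 1.76, 3.49 and 2.41% in P3MH, against at most 0.0109% in a WT library.

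The combined level of LOC_Os07g10570 and PROLM25 was 28.3, 55.4 and 44.3% of that of LOC_Os07g11910 and LOC_Os07g11920 in P1MH, 32.2, 23.8 and 37.0% in P3MH, and 22.9, 18.8 and 18.5% in WT. Every mutant library thus lay above every WT library, P3MH replicate 2 by the least. The sum of LOC_Os07g10570 and PROLM25 was 9939 RPKM on average in P1MH, 5427 RPKM in P3MH and 5462 RPKM in WT. It lay above WT in P1MH and overlapped WT in P3MH. The sum of LOC_Os07g11910 and LOC_Os07g11920 was 23974, 17580 and 27515 RPKM in the same genotypes. It overlapped WT in P1MH and lay below WT in P3MH. Within the pairs of abundant loci the ratio overlapped between all genotypes. LOC_Os07g11920 over LOC_Os07g11910 was 1.72 ± 0.245 in P1MH, 1.57 ± 0.339 in P3MH and 1.45 ± 0.119 in WT, and PROLM25 over LOC_Os07g10570 was 1.32 ± 0.137, 1.31 ± 0.287 and 1.52 ± 0.287 in the same genotypes (SD, n = 3 each).

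**Figure D4:**
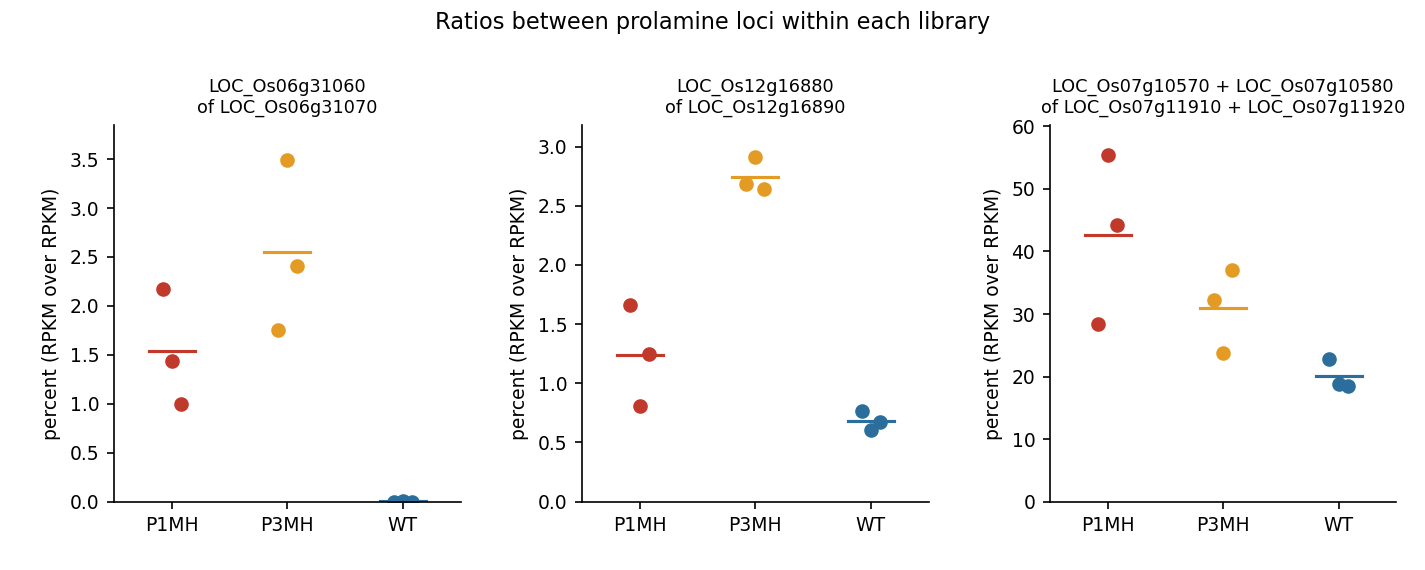
Ratio of RPKM between prolamine loci within each library, in percent, for P1MH, P3MH and WT. Points are libraries and bars are means of 3. In all 3 panels every mutant library lies above every WT library, and LOC_Os06g31060 in the first panel had to differ.

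The prolamine loci of chromosome 5 and the glutelins were set beside these loci. Over 17 chromosome 5 loci the sum was 14330, 9793 and 15874 RPKM in P1MH, 12121, 15523 and 15756 RPKM in P3MH, and 14902, 51164 and 42408 RPKM in WT. WT replicate 1 stood at about the mutant level there, and a single locus, LOC_Os05g26386, supplied 8141 to 26617 RPKM of the WT sums against 90.7 to 775 RPKM in the mutants. Without that locus the sum was 9401 to 15784 RPKM in P1MH and 11989 to 14981 RPKM in P3MH. In WT it was then 6761, 24548 and 20875 RPKM, with replicate 1 below every mutant library and the others above. The 10 loci outside that cluster made up 74.1 to 79.8% of both sets together in P1MH, 63.2 to 71.4% in P3MH and 46.3 to 72.01% in WT. The 10 glutelin loci summed to 184053 ± 5203 RPKM in P1MH, 172932 ± 6638 RPKM in P3MH and 143092 ± 3750 RPKM in WT (SD, n = 3 each), so both mutants lay above WT in every library. In P3MH the glutelin sum thus lay above WT in every library while that of the 10 prolamine loci lay below it, though the sum of the 8 loci other than LOC_Os07g11910 and LOC_Os07g11920 overlapped WT.

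**Figure D5:**
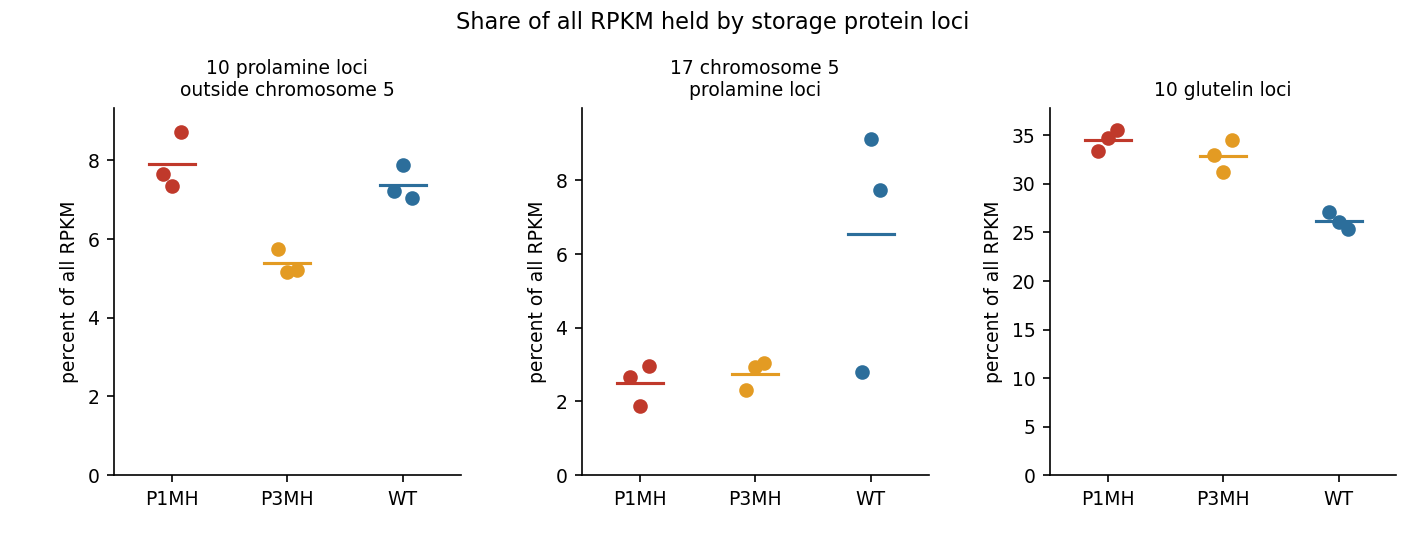
Percent of all RPKM held by the 10 prolamine loci outside chromosome 5, by 17 chromosome 5 prolamine loci and by 10 glutelin loci in P1MH, P3MH and WT. Points are libraries and bars are means of 3. The first share is lowest in P3MH, and 1 WT library lies among the mutants in the second.

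The calls in these and other lists were counted next. Of all tested genes, 3.18% were called higher and 5.63% lower in P1MH, and 1.67% higher and 3.1% lower in P3MH. Of the chromosome 5 loci, 12 were tested; 1 was called higher and 2 lower in P1MH (median -0.22), and 1 higher and 3 lower in P3MH (median -0.08). Of 10 glutelin loci, 3 were called higher in P1MH (median 0.37) and 1 in P3MH (median 0.24). Of 5 loci listed as endosperm transcription factors, 1 was called lower in each mutant, NF-YB1 (LOC_Os02g49410), with log2 fold changes of -0.70 in P1MH and -0.60 in P3MH (limma adjusted p = 0.0157 and 0.0464). None of 4 loci listed for ER protein folding was called in either mutant, with medians of -0.46 in P1MH and 0.07 in P3MH. By limma without adjustment, 3 of the 4 in P1MH had a p under 0.05, all lower, as 17.1% of tested genes did in that direction. In P3MH 0 of the 4 did, beside 14.5% of tested genes lower and 5.34% higher. RBP-P itself (LOC_Os01g16090) had a log2 fold change of -0.53 in P1MH, with a limma adjusted p of 0.107, and of -0.52 in P3MH, with one of 0.151. Each mutation swaps an amino acid, so the transcript level is no check of the genotype labels.

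Among 33 tested loci of these lists, the log2(RPKM + 1) values most like the log2 sum of the 10 prolamine loci over the 9 libraries were those of LOC_Os05g26440 (Pearson r = 0.73), LOC_Os05g26240 (0.51) and LOC_Os05g26350 (0.33). Of all tested genes, 2.83%, 13.8% and 29.0% reached these values, so the likeness was not rare. The 9 points share their scaling by total reads, and no glutelin locus was among the 3.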

How the data were processed

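The authors deposited RPKM values, per the file headers, for 55986 loci in 9 libraries, with 0 value columns left unused. Per the labels' protocols, the ScriptSeq v2 kit was used for the libraries. Which aligner, counter and build were used is not given in the sources used here. The 10 loci and all lists were chosen with earlier results of these data known.

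Read totals and counted lengths were recovered as the values that make the deposited RPKM whole reads, within a tolerance of 0.02. The shortest length giving whole reads was taken where the whole span gave none. A locus in a library rested on 72 to 171458 reads, apart from LOC_Os06g31060 in WT, with a counting error of 11.8 to 0.242%. The floor for no reads is 3 reads, and intervals cover counting error only, since the reads carry no molecular identifiers.

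Limma 3.58.1 (R 4.3.3), with trend and robust options on, was run on log2(RPKM + 1) for 16064 genes whose mean reached 1 RPKM. The model held all 9 libraries and a coefficient for each genotype. Benjamini-Hochberg adjustment was made per comparison, and a gene was called at an adjusted p under 0.05. A fold change on this scale understates that of low genes. The labels call the repeats biological without saying what was separate, so p-values measure the spread between these libraries. The fit was tested on simulated data. Other pseudocounts, filters, scalings, fits and library sets were tried. Every locus of the 10 is named, and of other lists the calls, NF-YB1, RBP-P and the 3 most similar loci, with gene names only where RefSeq (ASM3414082v1) gave one at a place matched by the spacing of neighbouring genes. Python 3.11.15, pandas 2.3.3, numpy 2.4.6, scipy 1.17.1 and matplotlib 3.10.9 were used.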

Additional observations from a re-analysis of the deposited data

Results flagged for a closer look

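LOC_Os12g16890 was flagged because every P1MH library lay above the WT mean and every P3MH library below it. Its values were 4045 ± 187 RPKM in P1MH, 2318 ± 476 RPKM in P3MH and 3398 ± 502 RPKM in WT (SD, n = 3 each). The direct difference between P1MH and P3MH was 0.82 (log2, SE 0.20), with a limma adjusted p of 0.18 that does not pass. Against WT neither mutant passed, at 0.26 in P1MH (limma adjusted p = 0.467) and -0.56 in P3MH (limma adjusted p = 0.144).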

How the results depend on the processing

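Each comparison was recomputed under 19 alternatives. With 1 library left out, the number of the 10 loci called higher in P1MH against WT ranged from 1 to 4, and the 1 came without WT replicate 3. The number called higher in P3MH against WT was 2 under all 19, and none was called in the other direction or between the mutants. LOC_Os06g31060 was called in both mutants under all 19, but it had to differ, as stated above, and adds nothing to these counts. LOC_Os12g16880 in P3MH was also called under all 19, while LOC_Os07g10570 in P1MH was called under 18. In P3MH against WT, LOC_Os07g11910 ranged from -0.85 to -0.35 over the 19 (limma adjusted p 0.0645 to 0.461). LOC_Os07g11920 ranged from -0.68 to -0.44 there (0.0775 to 0.354) and LOC_Os12g16890 from -0.68 to -0.39 (0.114 to 0.416). Same-numbered libraries of different genotypes had deviations correlated at -0.31 to 0.11, so the numbers were not taken as pairs. With the replicate number as a block, the same 3 and 2 loci were called, among 442 genes higher and 736 lower in P1MH (511 and 905 without it) and 239 higher and 411 lower in P3MH (268 and 498 without it). Median-ratio rescaling moved the median log2 fold change of all genes to -0.0034 in P1MH and 0.0027 in P3MH, against -0.10 and -0.13 without it, and gave 659 higher and 566 lower genes in P1MH and 408 and 326 in P3MH. Without WT replicate 3 there were 218 and 404 in P1MH and 128 and 237 in P3MH, and without P1MH replicate 3 the mutants differed in 135 and 103 genes in place of 2 and 3. A mean of at least 5 RPKM left 9047 genes to test, of which 332 (3.67%) were higher and 703 (7.77%) lower in P1MH, and 155 (1.71%) higher and 281 (3.11%) lower in P3MH.

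Some values near 0 that passed no test changed sign. LOC_Os07g11920 in P1MH against WT became 0.00702 under median-ratio and 0.00157 under upper-quartile rescaling, and 0.0333 with the 50 highest genes left out of the scaling. It ranged from -0.226 to 0.0553 with 1 library left out, the highest without P1MH replicate 2. PROLM25 (LOC_Os07g10580) in P3MH against WT became 0.0315 under median-ratio, 0.0400 under upper-quartile and 0.0691 under quantile normalization, and ranged from -0.296 to 0.116 with 1 library left out. LOC_Os07g10570 in P3MH against WT ranged from -0.0217 to 0.183 with 1 library left out, the lowest without WT replicate 3. The cause was not tested. The mean summed level, with 1 library left out, was 39864 to 43823 RPKM in P1MH, 27244 to 28890 RPKM in P3MH and 38478 to 41397 RPKM in WT. These sums keep the deposited scaling, and the size of the P3MH gap below WT depends on it. Under median-ratio rescaling LOC_Os12g16890 in P3MH against WT moved from -0.56 to -0.41, and LOC_Os11g33000 from -0.54 to -0.39.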

Other observations

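Short loci beside the 10 were looked at after their values were seen. LOC_Os03g55740, a locus of 814 bp that lies 3175 bp from LOC_Os03g55730, had 38.1, 45.6 and 22.2 RPKM in P1MH, 39.4, 23.7 and 36.3 RPKM in P3MH, and 116, 129 and 153 RPKM in WT. It was called lower in both mutants, at -1.93 in P1MH (log2; limma adjusted p = 0.00059, SE 0.25) and -1.99 in P3MH (limma adjusted p = 0.000522, SE 0.25). LOC_Os03g55734, 540 bp long and 250 bp from the same locus, had 109, 124 and 55.1 RPKM in P1MH, 96.9, 69.6 and 81.1 RPKM in P3MH, and 148, 146 and 155 RPKM in WT, and passed in neither (limma adjusted p = 0.102 and 0.0734).

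LOC_Os07g11900 lies 1436 bp from LOC_Os07g11910, at a spacing like that between LOC_Os07g11910 and LOC_Os07g11920. It had 199, 124 and 220 RPKM in P1MH, 94.1, 98.5 and 84.0 RPKM in P3MH, and 229, 318 and 232 RPKM in WT. It was called lower in P3MH, at -1.47 on the log2 scale (limma adjusted p = 0.00117, SE 0.21), and not in P1MH, at -0.54 (limma adjusted p = 0.136, SE 0.21). The difference between P1MH and P3MH was 0.93 (SE 0.21, limma adjusted p = 0.157). Neither the function of these 3 loci nor reads shared with their neighbours could be checked.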
